A study of Homo sapiens with 20 samples.

Results

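The genes described here encode the proteins of the cytosolic ribosome. Members were the protein-coding genes whose symbol is RPSA or has the form RPS or RPL followed by a number (with or without A or X), or RPLP0, RPLP1 and RPLP2. This gave 77 members, 31 of the small subunit and 46 of the large subunit, of 58233 gene rows in the count tables. The rule uses names alone and no measured value.

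Each ribosome carries a copy of nearly every one of these proteins (the P-stalk proteins RPLP1 and RPLP2 are present in more than a single copy), so cells make the proteins in balanced amounts. Most of the mRNAs share a short pyrimidine-rich start, the 5′ terminal oligopyrimidine (TOP) tract, through which mTOR signalling sets how well they are translated. In cancer cell lines they are among the most abundant short mRNAs, and RPL5, RPL11 and RPL23 also bind the p53 ligase MDM2 when ribosome assembly is disturbed.

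RNA was measured in 4 human lung cancer cell lines that carried Cas9 and an sgRNA against *ADAR*, the gene of an enzyme that edits adenosine to inosine in double-stranded RNA, or against *GFP*, which has no target in these cells. HCC366, NCI-H1650 and NCI-H196 were untreated and were harvested 5 days after transduction with lentivirus, while A549 was treated with vehicle or with IFN-β at 10 ng/mL for 24 h. There were 10 conditions with 2 libraries each, and the libraries of a condition carry different sgRNAs against the same gene (sg1 and sg2). The cells were pools selected with puromycin, not clones, and the controls carry Cas9 and a lentiviral sgRNA as the knockouts do. The labels do not say that the 2 libraries of a condition came from separate cultures, so errors and p-values below measure the spread between 2 sgRNAs, part of which may be technical.

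*ADAR* mRNA was lower than in GFP cells by a log2 fold change of −1.29 in NCI-H1650, −1.08 in A549 with vehicle, −0.60 in A549 with IFN-β and −0.41 in NCI-H196 (edgeR adjusted p 6.63e-14, 9.98e-05, 0.00148 and 0.00165), and by −0.84 in HCC366, where the test was not passed (adjusted p = 0.208). Reads on genes ranged from 62679 to 19520189 per library. The shallowest library was NCI-H196 GFP sg2, where a single read is worth 14.7 CPM (counts scaled to library size, TMM-normalized) and all members together had 739 reads. The epithelial keratins KRT8 and KRT18 averaged 1538 and 835 CPM in HCC366, 2650.3 and 1123 in NCI-H1650 and 2143 and 901 in A549. In NCI-H196 they averaged only 43.0 and 24.4. Other epithelial markers were highest in NCI-H1650. EPCAM was at 107 CPM there, 1.18 in HCC366 and 0.241 in A549, and CDH1 at 793, 6.55 and 30.7. KRT19 was at 504 CPM in NCI-H1650, 0.776 in A549 and 0 in HCC366 and NCI-H196. The mesenchymal marker VIM was at 2257 CPM in NCI-H196, 647 in A549, 137 in NCI-H1650 and 6.38 in HCC366. The T-cell marker CD3E was at 0 in all 4 lines.

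The sequences below show the listed RefSeq start of members that fell, the place searched for the TOP tract. They are the 10 members that passed the test in at least 2 of the 8 comparisons and whose RefSeq promoter could be placed in GRCh37, the build of the count tables. Each line gives 30 bases on the gene's strand, from 10 bases before the RefSeq start onward, and capitals mark the longest run of C and T that begins with C within 10 bases of the start.
RPS3, chr11:75110552-75110581: cgagccaCTTCCTTTCCTTTCagcggagcg
RPS15, chr19:1438385-1438414: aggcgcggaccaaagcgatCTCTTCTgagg
RPS24, chr10:79793611-79793640: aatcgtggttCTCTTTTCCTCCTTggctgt
RPS25, chr11:118889034-118889063: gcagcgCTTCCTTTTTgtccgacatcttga
RPS26, chr12:56435692-56435721: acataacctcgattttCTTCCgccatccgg
RPS28, chr19:8386370-8386399: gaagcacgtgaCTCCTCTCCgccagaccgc
RPL6, chr12:112849227-112849256: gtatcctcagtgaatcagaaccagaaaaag
RPL18, chr19:49122416-49122445: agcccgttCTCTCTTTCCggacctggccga
RPL24, chr3:101405543-101405572: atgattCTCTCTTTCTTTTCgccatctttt
RPL36, chr19:5690296-5690325: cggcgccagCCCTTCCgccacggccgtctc
RPL6 has no such run in this window, which lies well inside its annotated gene (chr12:112842993-112856642), and its other starts were not examined. In RPS15, RPS26 and RPS28 the run begins 9, 6 and 1 bases after the listed start. In 4 of the 10, RPL6 among them, no run covers the listed start. RPS25, RPL6, RPL18 and RPL24 lie on the minus strand and the others on the plus strand.

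RefSeq promoters (GRCh38.p14) were found for 62 of the 77 members. A C followed by at least 4 C or T, beginning within 10 bases of the start on the transcribed strand, was present in 55 of these 62 (88.7%) and in 33.5% of all 35116 promoters of the table. The run lay over the start itself in 43 of the 62 members (69.4%), against 7.28% of all promoters. The run had a median length of 11 bases and reached 23 in RPL7A. The 43 members whose run covered the start were set beside the other 19, of which 7 have no run at all. The groups lay close together, with median log2 fold changes of −0.21 and −0.19 after ADAR knockout in NCI-H1650. After IFN-β in A549 ADAR cells the medians were −0.20 and −0.15.

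A549 gave the largest part of its reads to the members and NCI-H196 the smallest. The members together took 3.99% to 4.99% of the reads on genes in A549, 2.13% to 2.62% in NCI-H1650, 2.15% to 2.75% in HCC366 and 1.11% to 1.32% in NCI-H196. Within lines, the share averaged 2.59% ± 0.0303 (SD, n = 2) in NCI-H1650 GFP and 2.27% ± 0.195 in NCI-H1650 ADAR, and in A549 it was 4.92% ± 0.0879 with ADAR sgRNA and vehicle and 4.17% ± 0.243 with ADAR sgRNA and IFN-β. Both ADAR libraries lay below both GFP libraries in NCI-H1650, and both ADAR libraries with IFN-β lay below the other 6 in A549. In HCC366 and NCI-H196 the groups overlapped. Because these are shares of a bulk library, fewer cells of a kind and less RNA per cell cannot be told apart.

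**Figure D1:**
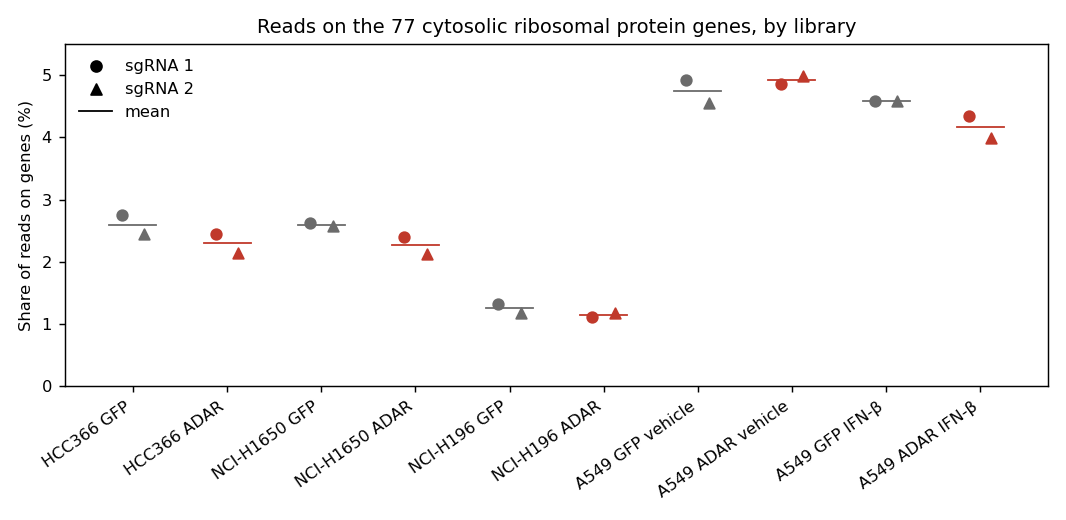
Share of reads on genes that fell on the 77 members (percent, y axis) in each of the 20 libraries, by condition (x axis); circles are sgRNA 1, triangles sgRNA 2 and lines the mean of 2 libraries. A549 libraries lie between 3.99% and 4.99% and NCI-H196 libraries between 1.11% and 1.32%, and the A549 ADAR libraries with IFN-β are the lowest of their line.

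Per kilobase of annotated transcript, the median member stood at 307 CPM in HCC366 GFP, 311 in NCI-H1650 GFP, 140.4 in NCI-H196 GFP and 555 in A549 GFP with vehicle, above 98.6% to 99.5% of protein-coding genes across the 10 conditions; CPM were scaled within each line, so levels of different lines are set side by side without a test. The order of the highest members differed by line. RPS16 led in A549 GFP with vehicle at 2405 ± 184 CPM per kb (SD, n = 2), followed by RPS2, a core protein of the small subunit, at 2047 ± 69.5. RPL8 (1262 ± 64.1) and RPS2 (1229.9 ± 117) led in NCI-H1650 GFP and did not differ beyond their spread. RPL7A (1072 ± 107) and RPS7 (1010.1 ± 59.1) led in HCC366 GFP, again within their spread. RPLP0, the base of the P-stalk that recruits elongation factors, led in NCI-H196 GFP at 641 ± 24.2.

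RPL17 and RPS10 were among the 3 lowest members per kb in every condition, with 3.94 ± 0.0974 and 7.37 ± 2.72 CPM (SD, n = 2) in HCC366 GFP. The annotation places exons of a read-through gene on the same strand over 32.9% of RPL17's exon bases (RPL17-C18orf32) and 31.5% of RPS10's (RPS10-NUDT3), so the counts of both, which are named here because of that overlap and after their values were seen, are uncertain. The tests below left out RPL17 in HCC366 and NCI-H196 and RPS10 in HCC366 for low counts. RPS2 (25.9% of exon bases, shared with 2 snoRNA genes and an unnamed gene) and RPL36 (17.6%, shared with HSD11B1L) are uncertain for the same reason. Members also share sequence with many processed pseudogenes, whose rows held reads equal to 2.27% to 6.57% of the members' own. For 17 members the annotated transcript is longer than 2 kb (7573 nt for RPL37, with a coding part of 291 nt), and their levels per kb rest on that annotation.

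Each comparison below was tested gene by gene with edgeR's quasi-likelihood F-test over all genes that passed a filter on low counts, and a member was called at an adjusted p below 0.05. In these fits no member was called higher in any of the 8 comparisons, although some alternative settings, offsets for GC content and length among them, gave calls of that direction in A549 and in HCC366. The calls that were made were all lower, and they came to 9 in NCI-H1650, 11 in NCI-H196, 8 for ADAR in A549 with IFN-β, 19 for IFN-β in A549 with ADAR sgRNA and 3 for the difference between the IFN-β effects, with 0 in the remaining 3 comparisons. Members were measured more precisely than most genes tested, with a median of 459 CPM against 18.1 over all genes in A549. Their median SE was 0.103 against 0.163 over all genes in NCI-H1650, and 0.0995 against 0.187 for IFN-β in A549 ADAR cells. An equal fold change is thus called more readily in a member, so the shares called below are not at equal precision.

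**Figure D2:**
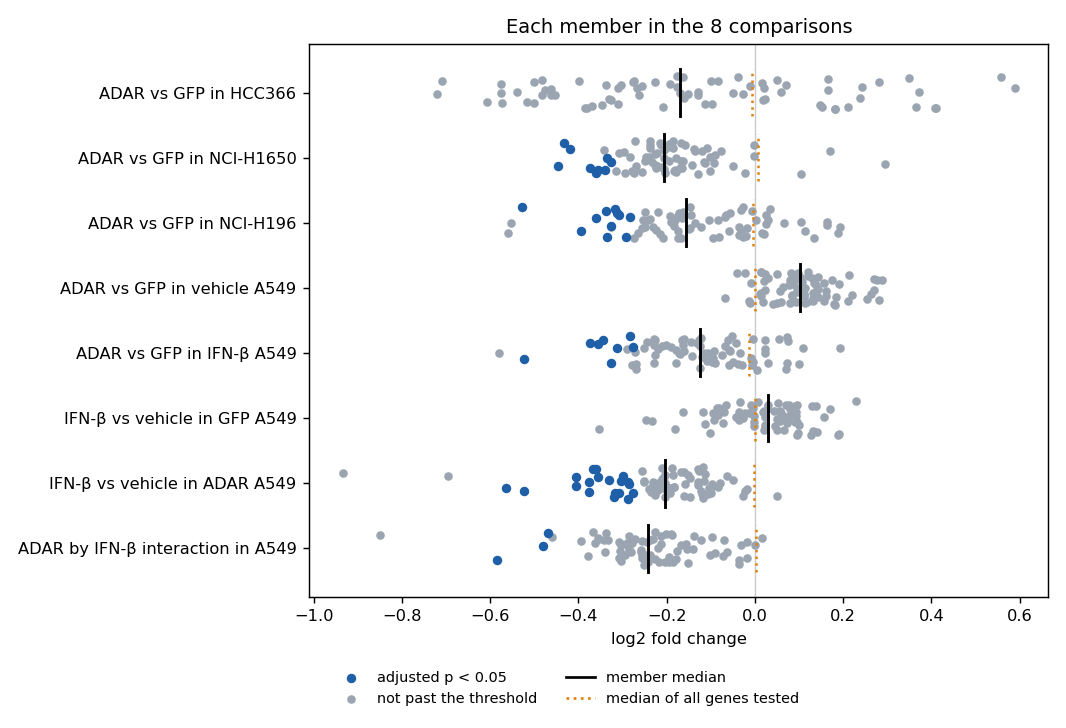
log2 fold change (x axis) of every member tested in the 8 comparisons (rows); each point is a member, dark blue where the adjusted p is below 0.05, the black line is the member median and the dotted line the median of all genes tested. Called members all lie left of 0, and the member medians run from −0.24 (the interaction in A549) to 0.10 (ADAR against GFP in A549 with vehicle).

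In NCI-H1650, a lung adenocarcinoma line that depends on ADAR, 9 of 77 members fell after ADAR knockout and 74 of 77 had a log2 fold change below 0. The background was 2.42% of all 14530 genes tested called lower and 6.18% called higher. The member median was −0.21, a change of −13.3%, with a middle range of −0.27 to −0.14, where the median of all genes was 0.01.

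RPS27, a zinc-finger protein of the small subunit, was at 110.0 and 95.5 CPM in the GFP libraries (sg1, then sg2) and at 76.9 and 74.1 in the ADAR libraries. Its log2 fold change was −0.45 (SE 0.12, adjusted p = 0.00859), the lowest of all members in this line. RPL7 was at 438 and 419 CPM in GFP and at 335 and 299 in ADAR, a log2 fold change of −0.43 (SE 0.10, adjusted p = 0.00268). Both ADAR libraries were below both GFP libraries for each of these genes.
RPL6 was at 458 and 442 CPM in GFP and at 359.5 and 313 in ADAR (log2 fold change −0.42, SE 0.10, adjusted p = 0.00384). RPL11, which with RPL5 and 5S rRNA forms the particle that binds MDM2, went from 200.01 and 191 CPM to 159.5 and 146 (log2 fold change −0.36, adjusted p = 0.0206). Its partner RPL5 was at 352 and 338 CPM in GFP and at 282 and 279.5 in ADAR, a log2 fold change of −0.30 (adjusted p = 0.0521) that did not pass the test. The other called members were RPS25, RPL23, RPS24, RPL29 and RPL34, with log2 fold changes between −0.37 and −0.33.

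The subunits lay close together, with a median of −0.22 over 31 small subunit members (3 called) and −0.20 over 46 large subunit members (6 called). The P-stalk members had a median of −0.11 and none was called. RPLP0 was at 1162 and 1141 CPM in GFP and at 1102 and 1017 in ADAR. The calls depended on single libraries. They were fewer without GFP sg1, GFP sg2 or ADAR sg2 and more without ADAR sg1, while the median stayed between −0.30 and −0.12. DESeq2 called 3 members, the fit of all 20 libraries 0 and the fit without a filter on low counts 4.

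In NCI-H196, a line that depends on ADAR and carries mesenchymal markers, 11 of 76 members tested fell after ADAR knockout, where the background was 7.5% of 14094 genes called lower and 10.3% called higher. The member median was −0.16, and 61 of 76 members were below 0.

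RPS25, a small subunit protein needed by some viral internal ribosome entry sites, was at 35.4 CPM in GFP sg1 and at 14.7, a single read, in GFP sg2, against 30.5 and 23.2 in ADAR. Its log2 fold change was −0.53 (SE 0.17, adjusted p = 0.0195). RPL5 was at 328 and 279 CPM in GFP and at 254 and 253 in ADAR, a log2 fold change of −0.36 (SE 0.10, adjusted p = 0.00517). For RPL5 both ADAR libraries were below both GFP libraries, and for RPS25 they lay between the GFP libraries.
RPL41, which encodes the shortest ribosomal protein, had 68.0 and 58.6 CPM in GFP and 59.9 and 49.7 in ADAR (log2 fold change −0.40, adjusted p = 0.0315), and its groups overlapped. RPS3, which lies at the mRNA entry of the small subunit, had 347 and 132 CPM in GFP and 268 and 279.6 in ADAR (log2 fold change −0.28, adjusted p = 0.0369), so its GFP libraries stood on either side of the ADAR libraries. RPS2, RPL7, RPS13, RPS24, RPL23 and RPS4X were also called, with log2 fold changes between −0.34 and −0.29.

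The calls and the direction changed with single libraries. Without GFP sg1 the median was 0.27, but GFP sg2 was then the sole control, with 739 reads over all members. Calls were fewer without GFP sg1, ADAR sg1 or ADAR sg2 and more without GFP sg2. Blocking on sgRNA number left 0 calls (median −0.14), with 110 of all genes called higher and 5 lower. DESeq2 and a fit without the filter on low counts also called 0. RPL7, RPL23, RPS24 and RPS25 were called lower in NCI-H1650 as well, 4 of the 9 called there and 4 of the 11 called here. The overlap among all genes was not measured, and the NCI-H196 calls changed with the settings above.

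In HCC366, also a line that depends on ADAR, edgeR called 0 of 75 members tested, 0 had an unadjusted p below 0.05, and DESeq2 called 0. The background was 1.2% of 11135 genes called higher and 0.0449% called lower, and 2014 of these genes had an unadjusted p below 0.05. The member median was −0.17 with 51 of 75 below 0, but the members spread widely, from −0.72 to 0.59.

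RPS29, a small zinc-binding protein, had the lowest value: 71.3 and 68.2 CPM in GFP and 41.1 and 43.3 in ADAR (log2 fold change −0.72, SE 0.34, adjusted p = 0.298). RPL39, a protein of the exit tunnel, was at 231 and 239 CPM in GFP and at 213 and 76.3 in ADAR (−0.71, SE 0.46). RPS13 was at 249 and 219 CPM in GFP and at 217 and 91.2 in ADAR (−0.61, SE 0.42). For RPL39 and RPS13 the ADAR sg2 library alone was low.
At the other end, RPL18 was at 472 and 423 CPM in GFP and at 485 and 860.0 in ADAR (0.59, SE 0.35). RPLP1, a P-stalk protein, was at 260.3 and 271 CPM in GFP and at 315 and 468 in ADAR (0.56, SE 0.32). RPL10A was at 243 and 242 CPM in GFP and at 283 and 363 in ADAR (0.41, SE 0.31). Here too the ADAR sg2 library was the one farthest from the rest.

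The ADAR sg2 library of HCC366 also stood apart in composition. Splines in GC content and transcript length, fitted to genes outside the family, accounted for 51.7% of the variance of its log2 ratios to the mean of the line, 35.6% in GFP sg2 and 14.04% to 14.6% in the other HCC366 libraries, against 0.187% to 16.5% in the other lines. In that library 85.6% of alignments were not unique, where the other 19 reached at most 59.1%. RPL18 has 58.3% GC and RPL39 43.1%. Across the 75 members the Spearman correlation of log2 fold change with GC was 0.56, and across 10995 other genes it was 0.60, a description over genes of the same 4 libraries. With transcript length it was 0.03 among members and −0.16 among other genes.

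With offsets for GC content and transcript length the member median in HCC366 was −0.08 and 0 members were called. Of all 11135 genes, 893 were called higher and 233 lower with these offsets. A fit without ADAR sg1 leaves ADAR sg2 as the sole knockout library, so its calls rest on that library alone. With all 20 libraries in 1 fit 6 members were called, where 2052 of all genes were called higher and 1649 lower. The part of the ADAR sg2 library's composition in these values was not tested beyond those offsets.

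In A549, a lung adenocarcinoma line that does not depend on ADAR, most members had values above 0 after ADAR knockout with vehicle, and none passed the test. Of 77 members edgeR called 0 (0 higher and 0 lower, background 0.0324% and 0.0906% of 15449 genes), the median was 0.10, and only 6 members were below 0. At an unadjusted p below 0.05 there were 6 members, all higher, against 642 of 15449 genes (278 higher and 364 lower). DESeq2 called 0 members. RPS29 had the largest value, at 163 and 164 CPM in GFP and at 189 and 211 in ADAR (log2 fold change 0.29, SE 0.10, adjusted p = 0.994). RPL26 (0.28) and RPL36A (0.28) followed, and RPS28 (−0.07), RPL18 (−0.04) and RPL15 (−0.02) were lowest.

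IFN-β in A549 GFP cells gave no calls among the members. By edgeR 0 of 77 passed in either direction (background 4.39% higher and 1.31% lower). At an unadjusted p below 0.05 there were 3 members, against 2343 of 15449 genes. DESeq2 called 0 members, and the member median was 0.03. RPL11 was at 289.8 and 329 CPM with vehicle and at 384 and 342 with IFN-β (log2 fold change 0.23, SE 0.10, adjusted p = 0.225). RPL23 was at 729.6 and 691 CPM with vehicle and at 623 and 587 with IFN-β (−0.23, SE 0.09, adjusted p = 0.191). RPS12 (0.19) and RPL21 (0.19) were next to RPL11, and RPL17 (−0.35, on few reads) and RPS7 (−0.25) were below RPL23. Calls appeared when either GFP library with IFN-β was left out.

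IFN-β in A549 ADAR cells gave the most calls. Of 77 members 19 fell, 13 of the large subunit and 6 of the small, and 76 of 77 were below 0; the background was 9.04% called lower and 15.5% called higher. The member median was −0.20 and that of all genes was near 0.

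RPL23 was at 765 and 764 CPM with vehicle and at 536 and 498 with IFN-β, a log2 fold change of −0.56 (SE 0.09, adjusted p = 3.43e-05). RPS15, a small subunit protein near the decoding site, was at 378 and 402 CPM with vehicle and at 294 and 249.8 with IFN-β (−0.52, SE 0.10, adjusted p = 0.000218). RPS26, which contacts mRNA at the exit channel, was at 211 and 216 CPM with vehicle and at 165 and 158 with IFN-β (−0.41, SE 0.10, adjusted p = 0.00272). For all these genes both IFN-β libraries were below both vehicle libraries.
RPL7 was at 649 and 694 CPM with vehicle and at 536 and 500.0 with IFN-β (−0.38, adjusted p = 0.00363). RPS3 was at 1070.1 and 1114 CPM with vehicle and at 902 and 781 with IFN-β (−0.38, adjusted p = 0.00727). RPL5 was at 516 and 522 CPM with vehicle and at 423 and 429 with IFN-β (−0.29, adjusted p = 0.0357). These libraries did not overlap between treatments either.
RPL18 (−0.28) and RPL5 (−0.29) were among the called members nearest 0. Calls were fewer without either ADAR library with vehicle or without ADAR sg2 with IFN-β, and more without ADAR sg1 with IFN-β. RPL23 was called under all 14 alternative settings.

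**Figure D3:**
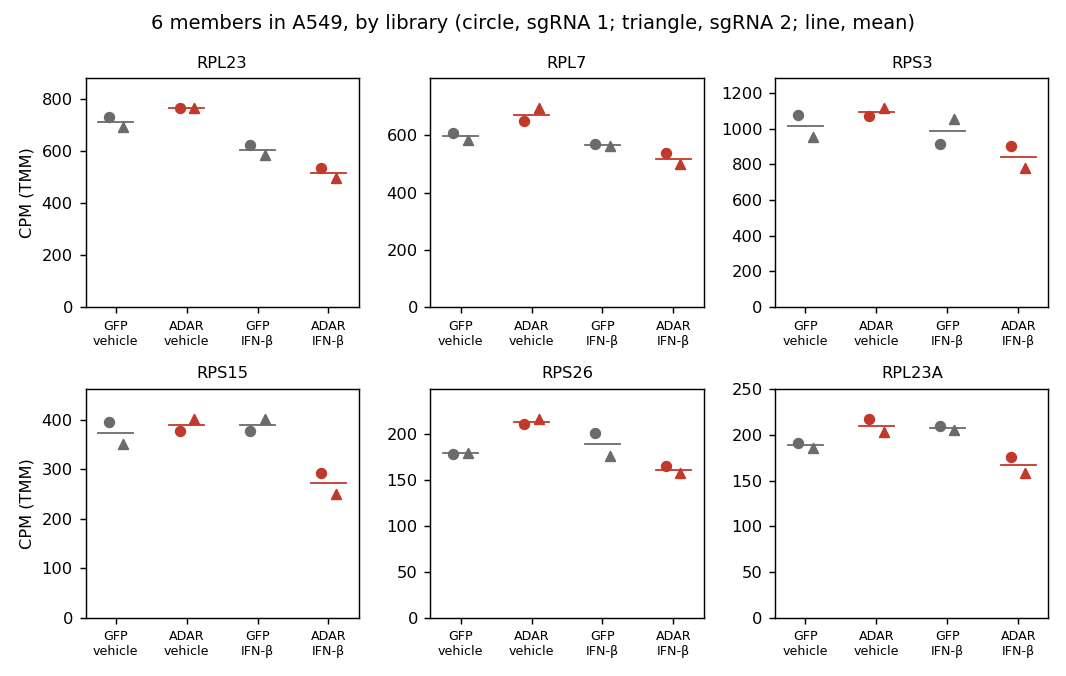
TMM-normalized CPM (y axis, from 0) of 6 members in the 8 A549 libraries by condition (x axis); circles are sgRNA 1, triangles sgRNA 2 and lines the mean of 2 libraries. In each panel both ADAR libraries with IFN-β lie below both ADAR libraries with vehicle, for example 536 and 498 against 765 and 764 for RPL23.

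ADAR against GFP in the presence of IFN-β, which uses the same ADAR libraries with IFN-β, had 8 of 77 members called lower (background 6.19% lower and 10.8% higher), a median of −0.12 and 64 members below 0. RPS15 was at 378 and 402 CPM in GFP and at 294 and 249.8 in ADAR (log2 fold change −0.52, SE 0.10, adjusted p = 0.000404). RPL7A was at 1200.5 and 1339 CPM in GFP and at 1048 and 912 in ADAR (−0.37, SE 0.10, adjusted p = 0.01). RPS28 (−0.35), RPL18 (−0.34), RPL23A (−0.31), RPL36 (−0.28) and RPL24 (−0.28) were also called. With offsets for GC content and transcript length, given further on, 0 of these 8 calls were kept and RPL36 had 0.04. Calls were more without GFP sg1 or ADAR sg1 and fewer without GFP sg2 or ADAR sg2 (all with IFN-β).

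The difference between the IFN-β effects in ADAR and in GFP cells, tested as an interaction over the 8 A549 libraries, was called for 3 of 77 members, all lower (background 0.977% lower and 4.07% higher), with a median of −0.24 and 76 members below 0. RPS15 differed by −0.58 (SE 0.14, adjusted p = 0.0123), RPS26 by −0.48 (SE 0.14, adjusted p = 0.0405) and RPL23A, which lies beside the exit tunnel, by −0.47 (SE 0.14, adjusted p = 0.0445). RPL23A was at 192 and 186 CPM in GFP with vehicle, 210.2 and 205 in GFP with IFN-β, 217 and 203 in ADAR with vehicle and 176 and 158 in ADAR with IFN-β. With a replicate block only 1 member was called, where 583 of all genes were higher and 124 lower. Calls were fewer without any single vehicle library or without ADAR sg2 with IFN-β, and more without any other IFN-β library. The 5 A549 comparisons share libraries and are not separate evidence.

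Members are short mRNAs, with a median annotated length of 785 nt in A549 against 2876 nt over all genes tested, so other short transcripts were set beside them. In the ADAR libraries of A549 with IFN-β, short transcripts outside the family were lower too. Among other genes, the shortest of 20 bins by length (median 398.5 nt) had a median log2 fold change of −0.28 for ADAR against GFP with IFN-β and −0.26 for IFN-β against vehicle in ADAR cells, and the longest bin had 0.11 in both. The bins nearest the members' own median length (663 and 922.5 nt) had −0.22 and −0.20 in the former comparison and −0.19 and −0.17 in the latter, where the members' medians were −0.12 and −0.20. In NCI-H1650 the shortest bin of other genes had −0.06, where the members had −0.21.

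**Figure D4:**
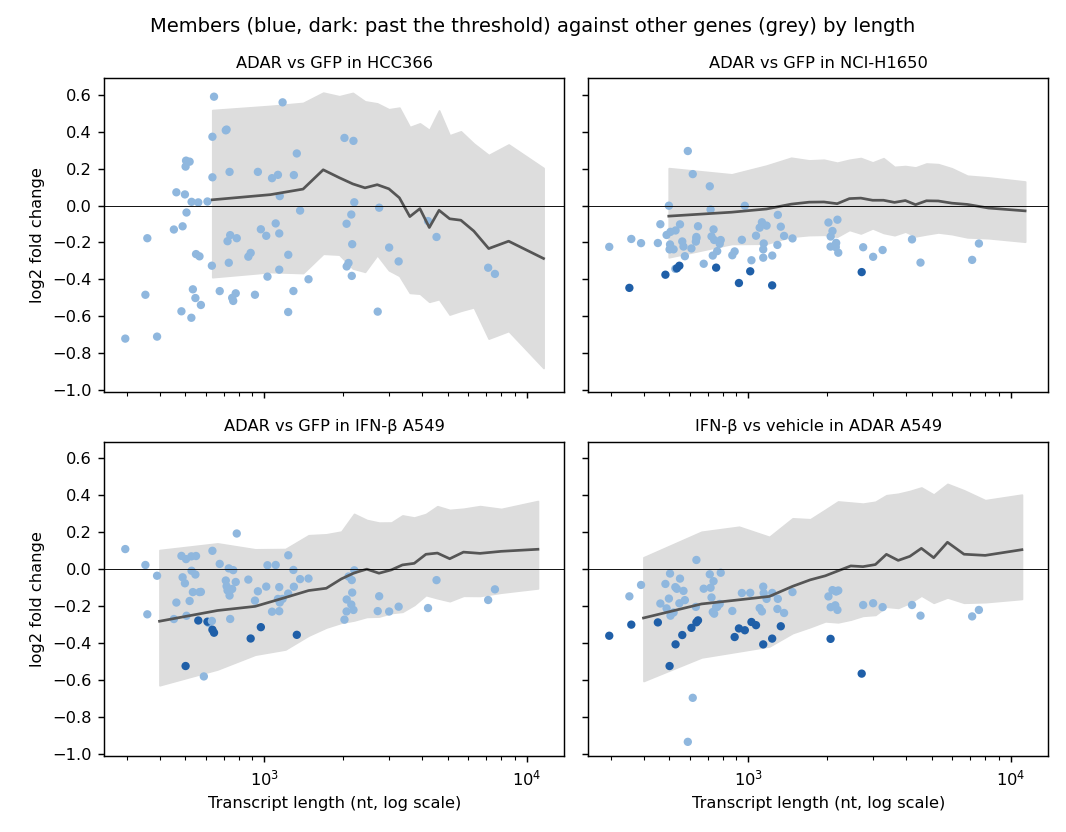
log2 fold change (y axis) against transcript length in nt (x axis, log scale) in 4 comparisons; the grey line and band are the median and middle range of other genes in 20 bins of equal size, and blue points are members, dark where called. In A549 the grey line rises with length from −0.28 and −0.26 to 0.11 and the member medians are −0.12 and −0.20, while in NCI-H1650 it runs near 0 and most members lie below it.

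With offsets for GC content and transcript length, 1741 of 15449 genes were called higher and 1021 lower for ADAR against GFP in A549 with IFN-β. There the member median went from −0.12 to −0.002. The member calls became 7 higher and 5 lower, with none of the 8 called without offsets among them. RPS12 (0.25), RPL12 (0.31) and RPS29 (0.30) were among those then called higher and RPL23 (−0.30) and RPL22 (−0.24) among those lower. These calls split by annotated length: the 7 higher have transcripts of 295 to 785 nt and the 5 lower of 2061 to 7136 nt. With the length of the coding part in place of transcript length, RPS29 (0.25) alone of these named members was called. For IFN-β in ADAR cells the member median went from −0.20 to −0.06. There 12 members were lower and 3 higher, where 1725 of all genes were lower and 2561 higher. The 3 higher have annotated transcripts of 503 to 713 nt and the 12 lower of 887 to 7573 nt. Of the 19 called without offsets 5 were kept: RPL23 (−0.62), RPL7 (−0.38), RPS3 (−0.37), RPS26 (−0.29) and RPL7A (−0.22); RPS15 was not called. For the interaction the member median went from −0.24 to −0.11, with RPS26 (−0.39) and RPL23 (−0.38) called. Of all genes 289 were lower and 748 higher there.
In NCI-H1650 the member median went from −0.21 to −0.15 with 9 members lower, 7 of them among the 9 called without offsets. Of all 14530 genes 293 were lower and 1058 higher there. In NCI-H196 the member median went from −0.16 to −0.14 with 8 members lower, of which 4 were among the 11 called without offsets. Of all 14094 genes 977 were lower and 1169 higher there. In A549 with vehicle the member median went from 0.10 to 0.12, with 0 members called. With coding length in place of transcript length, an alternative added after the long annotated ends were seen, the medians were −0.04 for ADAR against GFP in A549 with IFN-β, −0.05 for IFN-β in ADAR cells, −0.12 for the interaction, −0.14 in NCI-H1650 and −0.09 in NCI-H196, where 2 members were called. RPS15 was called lower again in A549 with coding length (−0.28 against GFP with IFN-β and −0.26 against vehicle).

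**Figure D5:**
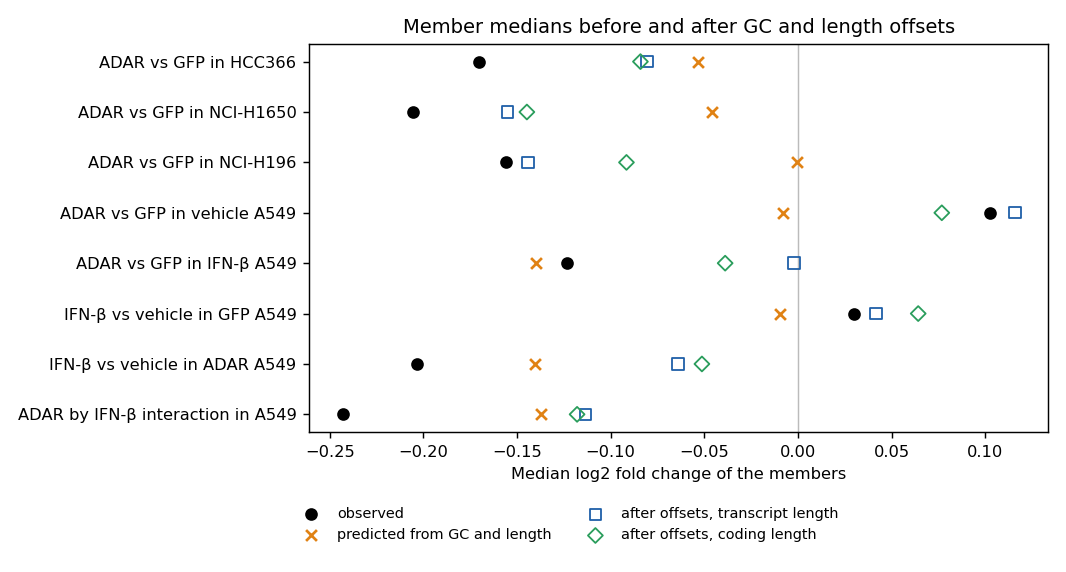
Median log2 fold change of the members (x axis) in each comparison (rows): observed (filled circles), predicted from GC content and transcript length in other genes (crosses), and after offsets with transcript length (squares) or coding length (diamonds). For ADAR against GFP in A549 with IFN-β the observed −0.12 and the predicted −0.14 lie together and the corrected medians are −0.002 and −0.04, while in NCI-H1650 the median stays at −0.15 and −0.14.

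Other groups of genes were read from the same fits, by lists drawn up with earlier results of these data known. Nuclear subunits of oxidative phosphorylation, which have short mRNAs as well (median 737 nt), had medians near those of the members. For IFN-β in A549 ADAR cells 21 of 76 were called lower and 0 higher (27.6% lower against 9.04% of all genes, median −0.24). In NCI-H1650 6 of 74 were lower (8.11% against 2.42%, median −0.19), and in NCI-H196 6 of 75 were lower, 8% against 7.5% of all genes (median −0.14). Mitochondrial ribosomal proteins had 15 of 77 lower (19.5%) and 1 higher for IFN-β in A549 ADAR cells (median −0.18) and 1 of 78 lower (1.28%) in NCI-H1650 (median −0.14). In HCC366 edgeR called 0 of 69 oxidative phosphorylation subunits (median −0.33) and 0 of 72 mitochondrial ribosomal proteins (median −0.06).

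Other translation genes with TOP mRNAs, which code for elongation and initiation factors and a few other proteins and have longer transcripts (median 2854.5 nt), had 4 of 27 called lower (14.8%, against 2.42% of all genes) and 0 higher in NCI-H1650 (median −0.17): EIF3E (−0.37), EIF3A (−0.36), HNRNPA1 (−0.35) and NPM1 (−0.31). In NCI-H196 there were 6 lower (22.2%, against 7.5% of all genes) and 1 higher (median −0.10), among them EEF1B2 (−0.54), a subunit of the elongation factor that reloads eEF1A, and, higher, EEF1D (0.45). For IFN-β in A549 ADAR cells EEF1B2 (−0.35), PFDN5 (−0.32) and EIF3G (−0.30) were lower (3 of 27, 11.1% against 9.04%) and EIF4A2, an initiation factor helicase, was higher (0.87, SE 0.12, adjusted p = 7.24e-07).

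Ribosome biogenesis factors make and process rRNA in the nucleolus. For IFN-β in A549 ADAR cells 10 of 84 were called higher (11.9%, against 15.5% of all genes) and 12 lower (14.3%, against 9.04%), with a median of −0.05. TAF1D, a subunit of the RNA polymerase I factor SL1, was higher by 1.07, NOC3L by 0.73 and TAF1A by 0.70, and TSR3 (−0.51), NHP2 (−0.49) and UTP11 (−0.48) were lower. In NCI-H1650 there were 1 higher (RRP12, 0.34) and 2 lower (UTP18, −0.47, and DKC1, −0.38) of 84, with a median of −0.07; these are 1.19% and 2.38%, against 6.18% and 2.42% of all genes. Of genes that resemble members but lie outside the rule, RPL22L1, the paralogue of RPL22, was higher for ADAR against GFP in A549 with IFN-β (0.38, adjusted p = 0.0442), while RPL22 itself had −0.16 and was not called. RPS27L was lower in NCI-H196 (−0.61, adjusted p = 0.0139), where RPS27 had 0.19, and FAU, which encodes RPS30 fused to a ubiquitin-like part, was lower in A549 with IFN-β (−0.42, adjusted p = 0.00348).

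Of the members hosting snoRNA genes (29, with 60 snoRNA genes), 6 (20.7%) were called lower for IFN-β in A549 ADAR cells (median −0.19), and of the 48 that host none 13 (27.1%) were (median −0.20), where the share of all genes was 9.04%. In NCI-H1650 the calls were 1 of 29 (3.45%) and 8 of 48 (16.7%), where the share of all genes was 2.42%, and the medians were −0.21 and −0.20; the difference between hosts and others was not tested. The 4 members on chromosome X, RPS4X, RPL10, RPL36A and RPL39, had a median of −0.20 in NCI-H1650 and none of them was called there. RPL13A, which takes part in the interferon-γ translational silencing complex, had −0.23 for IFN-β in A549 ADAR cells and 0.03 in GFP cells and was called in neither. RPS27A, which is made as a fusion with ubiquitin, had −0.02 in ADAR cells and −0.001 in GFP cells. RPS6, the S6 kinase substrate, had −0.24 and −0.005. RPSA, RPL3, RPL4 and RPS14 had −0.09, −0.16, −0.19 and −0.20 for IFN-β in ADAR cells, RPS19 had −0.15, and none of them was called.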

How the data were processed

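The authors sequenced ribosome-depleted RNA with a directional kit as 150-bp paired ends, aligned it to hg19 with STAR and counted reads per gene with HTSeq, and they tested with DESeq2 (versions not given in the sources used here). The deposited values are raw counts, 1 table per library, with no normalization. Their 5 summary lines, which name no gene (not unique, no feature and the like), were left out of library sizes and tests; alignments that were not unique made up 22.5% to 85.6% of a library, and reads in exons shared by genes are not counted, so members with close copies may be undercounted. Of 58233 gene rows 55727 matched a symbol, with 97.4% of counts. No pair of tables was identical.

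The 4 lines were fitted separately in edgeR 4.0.16 (R 4.3.3): TMM scaling, filterByExpr by group, a quasi-likelihood F-test, and Benjamini-Hochberg adjustment over all genes tested, called at 0.05. Shallow libraries limit the precision, since the lowest has 62679 reads on genes. Offsets came from natural splines (5 degrees of freedom) in GC content and log length, fitted to genes outside the family with an expected count of at least 5. The pipeline was tested on simulated counts, where the offsets recovered planted changes less accurately in NCI-H196 than in the other lines. Alternatives were DESeq2 1.42.0, its size factors, no filter, scaling without members, a replicate block, offsets, all 20 libraries in 1 fit and leaving out each library.

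The genes named were a fixed panel of 22 (RPSA, RPS2, RPS3, RPS4X, RPS6, RPS14, RPS19, RPS27, RPS27A, RPS29, RPLP0 to RPLP2, RPL3, RPL4, RPL5, RPL10, RPL11, RPL13A, RPL22, RPL39 and RPL41), the 3 highest and 3 lowest called members of each comparison (of all tested where none was called), and every called member where fewer than 5 were called; further called members are listed by name, except that some are counted but not reported here by name. The members and lists were chosen with earlier results of these data known. Promoter sequences are from RefSeq and were placed in GRCh37 by exact match of the 300-base promoter.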

Additional observations from a re-analysis of the deposited data

Results flagged for a closer look

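The IFN-β effect differed between ADAR and GFP cells of A549 for RPS15, RPS26 and RPL23A, by the test of the difference itself (edgeR, an interaction term over 8 libraries). The effect in ADAR cells minus that in GFP cells was −0.58 for RPS15, −0.48 for RPS26 and −0.47 for RPL23A on the log2 scale. With offsets for GC content and transcript length RPS26 remained called and RPS15 and RPL23A did not, and with coding length in place of transcript length RPL23A alone was called. No group has enough libraries for a test of single outlying samples.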

How the results depend on the processing

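The fit of all 20 libraries called 6 members in HCC366 and 1 for IFN-β in A549 ADAR cells. It called 0 members in NCI-H1650, in NCI-H196, for ADAR against GFP in A549 with IFN-β and for the interaction. Among all genes it called 2052 higher and 1649 lower in HCC366, and 1432 and 635 for IFN-β in A549 ADAR cells. DESeq2 called 3 members in NCI-H1650, where it called 322 of all genes higher and 67 lower. In NCI-H196 it called 0 members, with a median of −0.67 over all genes and −0.11 over the members. With DESeq2's size factors in edgeR these NCI-H196 medians were −0.01 and −0.16. The DESeq2 fit covered every gene with a read and the edgeR fit the 14094 genes past the filter, so these all-gene medians rest on different genes. In edgeR without the filter the all-gene median was 0.02. The cause of the difference in medians was not tested. Without a filter on low counts there were 4 member calls in NCI-H1650, 0 in NCI-H196 and 10 for IFN-β in ADAR cells. Over all genes these fits called 819 higher and 208 lower in NCI-H1650, and 2450 and 915 for IFN-β in ADAR cells. Offsets with a replicate block gave 3 member calls in HCC366, none (0) in NCI-H196 and 14 for ADAR against GFP with IFN-β (median −0.0029). Over all genes those fits called 1151 higher and 466 lower in HCC366, and 1777 and 1069 for ADAR against GFP with IFN-β. The member medians with block and offsets were −0.064 for IFN-β in ADAR cells and −0.11 for the interaction. Offsets alone gave medians of −0.0022, −0.064 and −0.11 in those A549 comparisons. Coding length, added after seeing the data, gave 2 member calls in NCI-H196 (over all genes 1149 higher and 966 lower). It gave 2 for IFN-β in GFP cells (all genes 901 and 433). For ADAR against GFP with IFN-β there were 5 (median −0.039, all genes 1763 and 1027). For IFN-β in ADAR cells there were 8 (median −0.051, all genes 2559 and 1674), and for the interaction 1 (median −0.12, all genes 806 and 301).

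With 1 library left out, calls ran from 0 to 36 in HCC366, in NCI-H1650 from 0 to 21 (medians −0.30 to −0.12), for NCI-H196 from 0 to 20 (−0.17 to 0.27), 1 to 14 for ADAR against GFP with IFN-β, 0 to 2 for IFN-β in GFP cells, 2 to 25 for IFN-β in ADAR cells (−0.28 to −0.14) and 0 to 7 for the interaction (−0.29 to −0.16); the lone library left in a group was assumed to vary like the others. Direction turned for RPS3 in NCI-H196 (0.0952 with DESeq2 and 0.11 with block and offsets), and for RPS25 (from −0.59 to 0.74 with 1 library left out), RPS4X (−0.32 to 0.45) and RPS3 (−0.34 to 1.08) there, each highest without GFP sg1, and for RPL36 in A549 with IFN-β under offsets (0.0405, and 0.0427 with the block). In NCI-H196 the fit without GFP sg1 left GFP sg2 as the sole control. In that library RPS25 had 1 read and RPS3 and RPS4X had 9 each. The cause of these turns was not tested.

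The sgRNA number as a replicate block gave 7 calls in NCI-H1650, 0 in both HCC366 and NCI-H196, 6 for ADAR against GFP with IFN-β, 17 for IFN-β in ADAR cells and 1 for the interaction (1 also with a block per sgRNA). Over all genes the block called 838 higher and 258 lower in NCI-H1650, 256 and 44 in HCC366 and 110 and 5 in NCI-H196. It called 1603 and 887 for ADAR against GFP with IFN-β, 2324 and 1331 for IFN-β in ADAR cells and 583 and 124 for the interaction. Between GFP and ADAR cells the sgRNA numbers name different sgRNAs. Between vehicle and IFN-β in A549 they name the same sgRNA. Over all genes, deviations of same-numbered libraries correlated at −0.253 in HCC366 and between −0.078 and −0.005 elsewhere, so they did not deviate together there. The members' median deviation was higher in sg1 than in sg2 of both groups in HCC366, NCI-H1650 and A549 with IFN-β. The same held for IFN-β in GFP cells. It went opposite ways in NCI-H196, in A549 with vehicle and for IFN-β in ADAR cells. The crossed pairing in HCC366 gave 0 calls.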
